A study of Mus musculus with 46 samples.

Results

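The genes described here encode proteins that build, regulate or signal from the centrosome and the primary cilium, and 8 of them were followed: Cep126, Cep41, Kif24, Tmem67, Invs, Anks6, Dync2h1 and Smo. They are 8 of the 55416 identifiers in a table of raw RNA-seq read counts, and 8 of the 8986 identifiers that passed a filter on low counts and were tested. Members were the genes of this kind whose identifier maps, in GENCODE M21, into 1 of 3 stretches of the GRCm38 genome (chromosome 4 from 5.64 to 55.53 Mb, chromosome 6 from 13.83 to 31.56 Mb and chromosome 9 from 5.31 to 13.29 Mb) and whose mean level was at least 5 CPM (counts of a gene per 1000000 counts assigned to genes). All 8 passed that minimum. The genes were restricted to these stretches because the identifiers of the table cannot be relied on to carry the level of the gene they name. Of 6 genes looked up outside the stretches, the rows of Eef1a1, an abundant translation factor, Col1a1, the main fibroblast collagen, and Actb, the cytoskeletal actin, averaged 0.0146, 0.150 and 8.24 CPM, while those of Vim and Gapdh averaged 3095 and 431 CPM. The stretches had been found in earlier work on these data, by setting row levels beside the mean levels in the supplementary table of the study. Of the members, Cep126, Tmem67 and Smo are in the portion of that table held here, and the names of the other members rest on the rows around them.

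The study treated mouse embryonic fibroblasts (MEFs) with borrelidin, an inhibitor of threonyl-tRNA synthetase, to ask which transcripts follow ATF4, the transcription factor of the integrated stress response. The 46 libraries fall into 4 groups: ATF4 KO MEFs with 600 nM borrelidin in DMSO for 7 h (n = 12), ATF4 KO MEFs with DMSO vehicle for 7 h (n = 11), wild type MEFs with 600 nM borrelidin in DMSO for 7 h (n = 12) and wild type MEFs with DMSO vehicle for 7 h (n = 11). The libraries are labelled as biological replicates. By the study's methods, the wild type MEFs were bought from a cell repository and the ATF4 KO line was made in the laboratory by electroporating Cas9 with guides against Atf4 and sorting the cells, so each genotype is described as a cell line and its replicates are not separate animals. Whether the KO line is 1 clone is not stated. The row of Atf4 itself lies outside the 3 stretches and averaged 1.67 CPM, so the KO could not be checked at the transcript.

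The primary cilium is an antenna of microtubules that grows from the older centriole of the centrosome when a cell leaves the cycle, and embryonic fibroblasts are among the cells most used to study it. Its base holds a transition zone that gates which membrane proteins enter, its shaft is served by intraflagellar transport with kinesin outwards and dynein inwards, and its proximal shaft holds a compartment named after inversin. Hedgehog signals are read there: Smo, a membrane protein, accumulates in the cilium when the Hedgehog receptor is bound by its ligand. Loss of such genes causes the ciliopathies, among them Joubert syndrome, Meckel syndrome and nephronophthisis.

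Library facts that touch these genes were as follows. Assigned counts ran from 2047362 to 3467765 per library, and the members had 53 to 2059 counts each in a library. On the second principal component of the 500 most variable rows, 14 libraries stood apart within their groups: replicates 1 to 3 of ATF4 KO borrelidin, replicates 1 to 3 of ATF4 KO vehicle and replicates 1 to 8 of wild type vehicle, with none of wild type borrelidin. No label names what these libraries share. The study reports that its own second component separated samples by drug treatment. Here wild type borrelidin scored 6.37 to 9.72, and wild type vehicle -19.9 to -13.8 in the 8 set apart and -0.43 to 1.52 in the 3 others. The sets were thus cut on a component that also orders the wild type groups by treatment, and are not independent of it. Results are given with all 46 libraries, and beside them with the 32 others or with the library set as a term in the model. That term is 1 shift shared by all groups, which could not be checked in wild type borrelidin. Of the 9 fibroblast markers inside the stretches, Flnc and Calu averaged 2497 and 2389 CPM and Col15a1 averaged 0.963 CPM. The summed level of these 9 had medians of 5582 CPM in ATF4 KO borrelidin, 7020 CPM in ATF4 KO vehicle, 5803 CPM in wild type borrelidin and 6477 CPM in wild type vehicle. Among 9 markers of other cell types Cd72 averaged 92.3 CPM and overlaps Tesk1 on the other strand. The remaining 8 summed to 21.2 to 62.4 CPM in ATF4 KO borrelidin, 14.2 to 33.1 CPM in ATF4 KO vehicle, 12.8 to 33.7 CPM in wild type borrelidin and 5.16 to 19.9 CPM in wild type vehicle. Pax5, the B cell factor, averaged 17.2, 9.49, 0.132 and 0.339 CPM in these groups, and Cftr, an epithelial chloride channel, averaged 1.72, 1.58, 7.05 and 1.54 CPM. The neural genes Ptprz1 and Gabbr2 averaged 5.45 to 7.38 CPM in each group, Esrp1, Sit1, Grm8 and Hemgn were under 1 CPM in each, and the part of such markers in the results below was not tested. In whole cultures, fewer cells of a type and less RNA per cell cannot be told apart.

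Per kilobase of exon, the mean over all libraries was 89.0 CPM for Smo, 12.8 for Cep126, 12.7 for Cep41, 9.04 for Tmem67, 8.24 for Invs, 7.71 for Kif24, 7.26 for Anks6 and 4.64 for Dync2h1. At this scale Smo stood far above the rest. In ATF4 KO borrelidin the order per kilobase was Smo (63.6 ± 4.45 CPM per kb, SD, n = 12), Cep126 (21.6 ± 3.09), Cep41 (16.5 ± 2.03), Tmem67 (14.7 ± 1.37), Invs (10.6 ± 0.956), Kif24 (7.35 ± 0.803), Anks6 (6.33 ± 1.22) and Dync2h1 (5.60 ± 0.836). In wild type vehicle it was Smo (99.2 ± 20.0 CPM per kb, SD, n = 11), Cep41 (9.51 ± 1.66), Kif24 (8.38 ± 1.36), Anks6 (8.29 ± 1.55), Tmem67 (6.24 ± 0.542), Cep126 (6.18 ± 1.34), Invs (6.04 ± 1.01) and Dync2h1 (4.09 ± 1.06). In wild type vehicle the neighbours from Cep41 to Anks6 and from Tmem67 to Invs lay within 1 SD of each other, and Cep126, next to Smo in ATF4 KO borrelidin, was among the lower genes there. In ATF4 KO borrelidin the neighbours within 1 SD were Cep41 with Tmem67, Kif24 with Anks6 and Anks6 with Dync2h1.

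The plot of levels by library shows the 8 genes side by side, and the values below are TMM-normalised CPM (TMM rescales each library so that most rows do not shift).

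**Figure D1:**
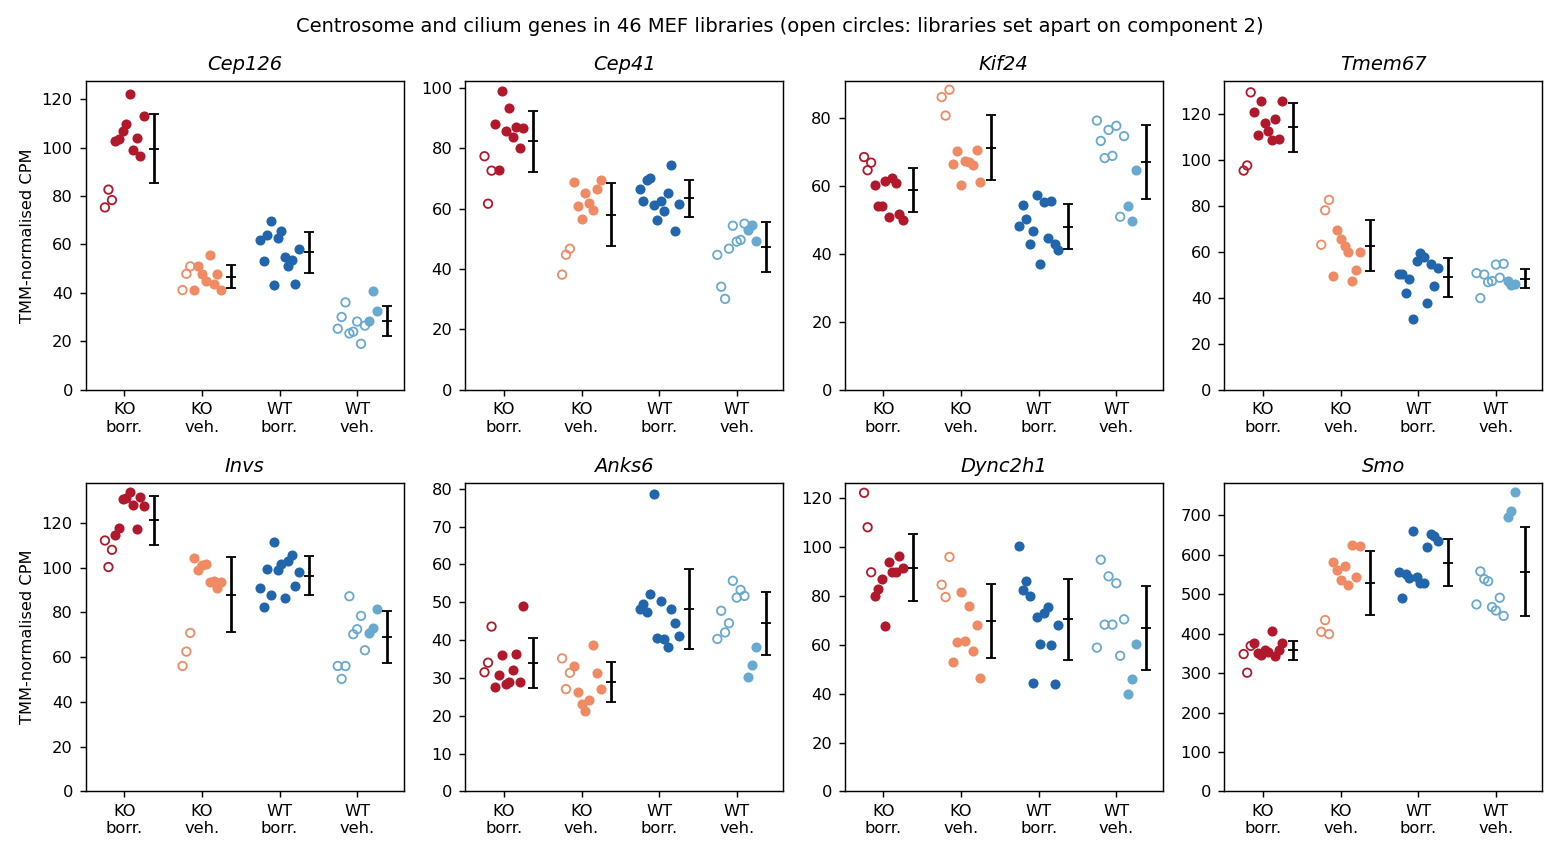
TMM-normalised CPM of the 8 genes (y axis, from 0) in the 4 groups (x axis; KO, ATF4 KO; WT, wild type; borr., borrelidin; veh., vehicle), 1 point per library, open circles for the 14 libraries set apart on the second principal component, bars for mean ± SD. Cep126 and Tmem67 in ATF4 KO borrelidin (75.3 to 122 and 95.3 to 129 CPM) lie above every library of the other groups, and Smo in ATF4 KO borrelidin reaches no higher than 406 CPM.

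Borrelidin changed 7 of the 8 genes in ATF4 KO MEFs and 4 of the 8 in wild type MEFs. Cep126, Cep41 and Invs were higher and Kif24 lower with borrelidin in both genotypes, whereas Tmem67 and Dync2h1 were called higher and Smo lower in the ATF4 KO. Of these 3, the difference between genotypes was itself called for Tmem67 and Smo. In wild type, Dync2h1 was called higher and Smo lower as well once the 14 libraries were left out (0.54 and -0.32) or the library set was in the model (0.42 and -0.19), so of the 3 Tmem67 alone was called in the KO and not in wild type in all 3 of these fits. A call here is an adjusted p under 0.05 in edgeR's quasi-likelihood test, adjusted over all 8986 rows. The background of such calls was high: 30.6% of all rows in the ATF4 KO (16.8% higher and 13.8% lower) and 59.3% in wild type (27.6% higher and 31.7% lower). With all 46 libraries, 4 of 8 in wild type is thus near the background and 7 of 8 in the KO is above it. The wild type reading depends on the library sets. Without the 14 libraries 6 of the 8 genes were called beside 1637 of 8986 rows, and with the library set in the model 5 beside 2632. The KO background moved too, from 2748 rows to 3695 and 3827 in these 2 fits, with 7 of the 8 genes called in each. Among the 294 tested rows of the 3 stretches, 43.2% were called in the ATF4 KO and 60.5% in wild type. The median log2 fold change of the 8 genes was 0.43 in the ATF4 KO and 0.09 in wild type, beside medians over all rows of -0.00085 and -0.04. Over the 294 tested rows of the stretches the medians were 0.06 and 0.19. The wild type median of the 8 genes was thus above that of all rows and below that of the stretches. At a stricter adjusted p under 1e-10, Cep126 and Tmem67 passed in the KO, where 0.456% of all rows did, and Cep126 passed in wild type, where 2.05% did. None of these stayed under 1e-10 in every alternative fit.

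**Figure D2:**
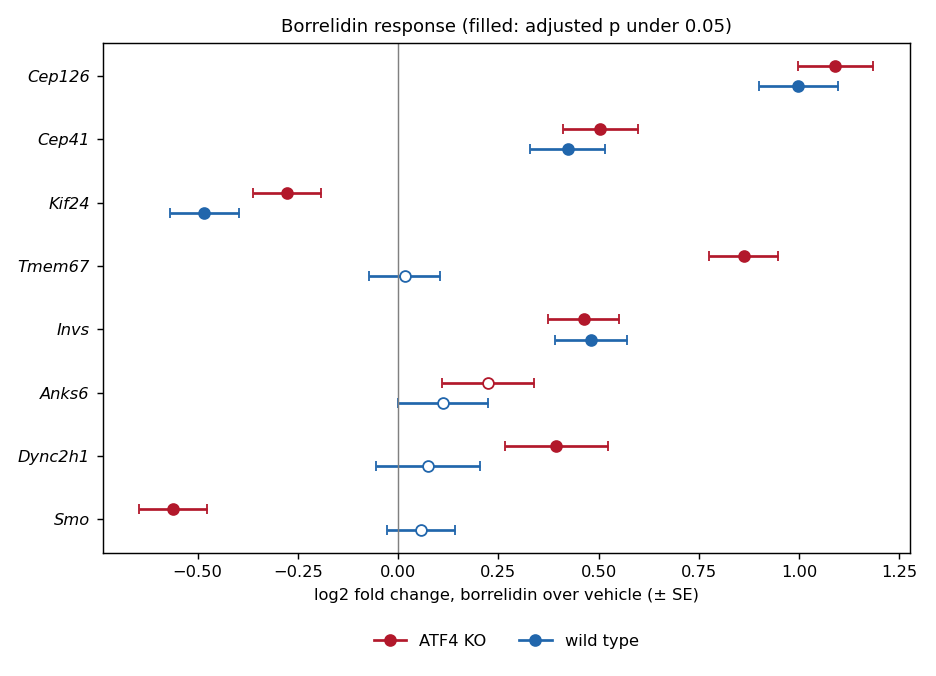
Log2 fold change of borrelidin over vehicle (x axis, ± SE of the model) for each gene (y axis) in ATF4 KO (red, n = 12 against 11) and wild type (blue, n = 12 against 11), filled where the adjusted p was under 0.05. Cep126 has the largest response of the 8 genes in both genotypes (1.09 and 1.00), and Tmem67 and Smo are the genes whose 2 points lie farthest apart.

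Cep126 encodes a centrosomal protein that organises microtubules and, in human cells, is needed to form the cilium. Its row is the gene at chr9:8076461-8134294 (minus strand, GRCm38), which no other annotated gene overlaps. It had 75.3 CPM in the lowest, 103 in the median and 122 in the highest ATF4 KO borrelidin library, against 41.1, 47.7 and 55.8 CPM in ATF4 KO vehicle. Wild type MEFs had 43.2, 56.5 and 69.5 CPM with borrelidin, against 19.0, 28.1 and 40.9 CPM with vehicle. In each genotype every borrelidin library was above every vehicle library. Within ATF4 KO borrelidin the 3 libraries set apart ran from 75.3 to 82.6 CPM and the 9 others from 96.6 to 122 CPM, with no overlap. In ATF4 KO vehicle the sets had medians of 47.9 and 46.2 CPM. The log2 fold change was 1.09 ± 0.09 (SE) in the ATF4 KO (edgeR adjusted p = 1.1e-12) and 1.00 ± 0.10 in wild type (adjusted p = 8.9e-12). Without the 14 libraries these were 1.17 and 0.74, with edgeR adjusted p of 1.5e-13 and 4.7e-05. Among all rows it ranked 15 by p in the KO and 153 in wild type. The responses of the genotypes differed by 0.09 ± 0.14 (edgeR adjusted p = 0.62; 95% interval -0.17 to 0.36), and by 0.42 without those libraries, again not called (adjusted p = 0.086).

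Cep41 encodes a protein of the centriole and axoneme needed for the glutamylation of ciliary tubulin, and is mutated in Joubert syndrome. It lies at chr6:30653457-30693749 (minus strand), overlapping the antisense gene Gm13782 at 0.0229 CPM. It had 61.7 CPM in the lowest, 84.8 in the median and 98.9 in the highest ATF4 KO borrelidin library, against 38.2, 61.0 and 69.5 CPM in ATF4 KO vehicle. The wild type levels were 52.8, 62.6 and 74.4 CPM with borrelidin, against 30.1, 49.3 and 55.1 CPM with vehicle. In each genotype 11 of 12 borrelidin libraries were above the highest vehicle library. The log2 fold change was 0.50 ± 0.09 in the ATF4 KO (edgeR adjusted p = 3.1e-05) and 0.42 ± 0.09 in wild type (adjusted p = 0.0002). With the library set in the model the wild type value was 0.17 and no longer called (edgeR adjusted p = 0.17), and without the 14 libraries it was 0.28 (adjusted p = 0.04). The responses differed by 0.08 ± 0.13 (edgeR adjusted p = 0.65), a difference that was called with the library set in the model (0.34, adjusted p = 0.036) and with scaling on the 3 stretches (0.27, adjusted p = 0.045).

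Invs encodes inversin, the ankyrin-repeat protein for which the proximal compartment of the cilium is named, known for the left-right axis and for nephronophthisis. The gene spans chr4:48279760-48431954 (plus strand) and overlaps Tex10 and the pseudogene Gm12435 on the other strand, at 271 and 14.0 CPM. How the authors counted with respect to strand is not stated, and so reads of such pairs cannot be told apart. Invs had 100.3 CPM in the lowest, 123 in the median and 134 in the highest ATF4 KO borrelidin library, against 56.1, 93.7 and 104 CPM in ATF4 KO vehicle. Wild type MEFs had 82.3, 98.6 and 111 CPM with borrelidin, against 50.3, 70.9 and 87.2 CPM with vehicle. Borrelidin libraries above the highest vehicle library numbered 11 of 12 in the KO and 10 of 12 in wild type. The log2 fold change was 0.46 ± 0.09 in the ATF4 KO (edgeR adjusted p = 5.2e-05) and 0.48 ± 0.09 in wild type (adjusted p = 1.5e-05). With the library set in the model the wild type value was 0.23, still called (edgeR adjusted p = 0.035). The genotypes' responses differed by -0.02 ± 0.12 (edgeR adjusted p = 0.92; 95% interval -0.26 to 0.23).

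Kif24 encodes a kinesin of the mother centriole that, in human cells, trims centriolar microtubules and restrains cilium assembly, so of the 8 genes it is the one known as a brake. It lies at chr4:41390745-41464887 (minus strand), overlapped by no other annotated gene. It had 50.01 CPM in the lowest, 60.6 in the median and 68.6 in the highest ATF4 KO borrelidin library, against 60.3, 67.4 and 88.4 CPM in ATF4 KO vehicle. In wild type it had 37.2, 47.4 and 57.5 CPM with borrelidin, against 49.8, 68.9 and 79.4 CPM with vehicle. Below the lowest vehicle library lay 6 of 12 borrelidin libraries in the KO and 7 of 12 in wild type, so the groups overlapped in both. Kif24 fell by 0.28 on the log2 scale in the ATF4 KO (SE 0.08, edgeR adjusted p = 0.0095) and by 0.48 in wild type (SE 0.09, adjusted p = 7.7e-06). Within wild type vehicle the 8 libraries set apart had a median of 74.1 CPM and the 3 others 54.1 CPM. With the 14 libraries left out, the wild type value was -0.23 and not called (edgeR adjusted p = 0.16), while the KO value was -0.26 (adjusted p = 0.0096). The KO call was lost when no filter on low counts was used (-0.28, edgeR adjusted p = 0.07).

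The promoter windows of genes that moved together are shown to give their sequence context. RefSeq windows of 250 bases before to 50 after a start site (GRCm38.p6, read along the gene) matched 6 of the 8 genes, in 7 windows. The windows of Cep126, Cep41 and Invs, called higher with borrelidin in both genotypes, and of Kif24, called lower in both, are given with motif matches in capitals.
Cep126, chr9:8134397-8134696, minus strand: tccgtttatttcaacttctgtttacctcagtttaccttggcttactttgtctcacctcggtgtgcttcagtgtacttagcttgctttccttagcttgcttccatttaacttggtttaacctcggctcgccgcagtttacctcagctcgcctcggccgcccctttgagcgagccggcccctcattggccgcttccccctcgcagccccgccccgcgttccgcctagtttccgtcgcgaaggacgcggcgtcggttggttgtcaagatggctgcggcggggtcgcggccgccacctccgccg
Cep41, chr6:30693700-30693999, minus strand: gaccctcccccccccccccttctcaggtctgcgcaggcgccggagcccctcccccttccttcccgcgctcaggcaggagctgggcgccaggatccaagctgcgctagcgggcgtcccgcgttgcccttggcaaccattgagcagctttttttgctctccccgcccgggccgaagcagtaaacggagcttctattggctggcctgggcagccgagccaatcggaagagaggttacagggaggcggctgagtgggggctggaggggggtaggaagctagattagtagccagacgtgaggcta
Invs, chr4:48279510-48279809, plus strand: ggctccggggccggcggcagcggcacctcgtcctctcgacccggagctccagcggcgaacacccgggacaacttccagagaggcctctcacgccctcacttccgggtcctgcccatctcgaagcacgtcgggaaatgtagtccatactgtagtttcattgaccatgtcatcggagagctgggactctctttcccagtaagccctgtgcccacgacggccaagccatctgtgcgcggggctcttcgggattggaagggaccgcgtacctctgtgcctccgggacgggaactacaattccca
Kif24, chr4:41464799-41465098, minus strand: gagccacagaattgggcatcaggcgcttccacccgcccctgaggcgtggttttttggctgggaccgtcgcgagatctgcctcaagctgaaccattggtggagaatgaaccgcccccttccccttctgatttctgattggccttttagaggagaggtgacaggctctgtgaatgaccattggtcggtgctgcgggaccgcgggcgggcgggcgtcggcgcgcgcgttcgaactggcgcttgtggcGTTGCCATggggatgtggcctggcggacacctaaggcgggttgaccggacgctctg
Both strands were searched for a pair of motifs. The first, TGATGNAA, is the core of the element that ATF4 binds with a C/EBP partner. It matched none of the 7 windows, while 3.97% of all 32851 RefSeq windows hold it. The second, GTTNCCAT, is the left part of the X-box bound by RFX factors, which regulate many ciliary genes. It matched at GTTGCCAT in the Kif24 window, starting 6 bases before the start site, and in a second, internal window of Cep126 (chr9:8123615-8123914), while 4.46% of all windows hold it. This string fixes the letters AT at its end, so gttgcccttggcaac in the Cep41 window is not matched. That stretch holds gttgcc and then its reverse complement ggcaac. Other forms of the X-box, with both of its parts, were not searched. The motifs do not overlap each other, and such a match is a string of letters and no measured site. The GC content of the 4 windows shown was 60.0% for Cep126, 66.0% for Cep41, 63.0% for Invs and 63.0% for Kif24, against a median of 52.7% over all windows.

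Tmem67 and Smo were the genes whose borrelidin response differed between genotypes, 2 of 8 calls beside a background of 33.6% of all rows (17.4% with a higher and 16.3% with a lower response in the KO). Among the 294 tested rows of the stretches 42.5% were called. With all 46 libraries a count of 2 is no more than either share, and this reading depends on the library sets. Without the 14 libraries 2 of the 8 genes were called beside 870 of 8986 rows, and with the library set in the model 3 beside 1797. Tmem67 and Smo both kept the call in each of the alternative fits run, and neither passed an adjusted p under 1e-10.

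Tmem67 encodes meckelin, a membrane protein of the transition zone that is mutated in Meckel and Joubert syndromes. The gene spans chr4:12039355-12090020 (minus strand) and on the other strand overlaps Rbm12b2 at 52.3 CPM and the antisense gene Gm11842 at 6.57 CPM. It had 95.3 CPM in the lowest, 114 in the median and 129 in the highest ATF4 KO borrelidin library, against 47.1, 62.4 and 82.6 CPM in ATF4 KO vehicle. The wild type levels were 30.9, 50.3 and 59.7 CPM with borrelidin, against 39.8, 47.5 and 54.8 CPM with vehicle. Every ATF4 KO borrelidin library was above every library of the other 3 groups, and the wild type groups overlapped widely. The log2 fold change was 0.86 ± 0.09 in the ATF4 KO (edgeR adjusted p = 5.3e-11) and 0.02 ± 0.09 in wild type (adjusted p = 0.88; 95% interval -0.16 to 0.19). The difference of the responses, KO minus wild type, was 0.85 ± 0.12 (edgeR adjusted p = 7.4e-07), and 0.90 without the 14 libraries (adjusted p = 7.8e-05).

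Smo encodes the signal transducer of the Hedgehog pathway that acts from the cilium. Its row is the gene at chr6:29735503-29761365 (plus strand), overlapping the pseudogene Gm13717 at 1.24 CPM. It had 301 CPM in the lowest, 357 in the median and 406 in the highest ATF4 KO borrelidin library, against 399, 544 and 626 CPM in ATF4 KO vehicle. Wild type MEFs had 492, 554 and 661 CPM with borrelidin, against 445, 533 and 760 CPM with vehicle. In the KO 11 of 12 borrelidin libraries were below the lowest vehicle library, and in wild type the borrelidin libraries lay inside the vehicle range. Smo fell by 0.56 on the log2 scale in the ATF4 KO (SE 0.08, edgeR adjusted p = 9.9e-07), and its wild type value was 0.06 ± 0.08 (adjusted p = 0.58). The difference of the responses was -0.62 ± 0.12 (edgeR adjusted p = 0.00011).
The wild type value of Smo moved with the library sets. The 8 wild type vehicle libraries set apart ran from 445 to 558 CPM and the 3 others from 696 to 760 CPM, with no overlap, and in ATF4 KO vehicle the 3 set apart ran from 399 to 435 CPM and the 8 others from 525 to 626 CPM. In ATF4 KO borrelidin the sets overlapped, at 301 to 369 CPM in the 3 set apart and 343 to 406 CPM in the 9 others. The term for the library set takes 1 shift for all groups and so does not follow this. With the 14 libraries left out, the wild type value was -0.32 ± 0.07 (edgeR adjusted p = 0.0011), and with the library set in the model it was -0.19 (adjusted p = 0.03). The difference of the responses was then -0.35 without those libraries (edgeR adjusted p = 0.012) and -0.36 with the set in the model (adjusted p = 0.0028), a smaller difference of the same direction.

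**Figure D3:**
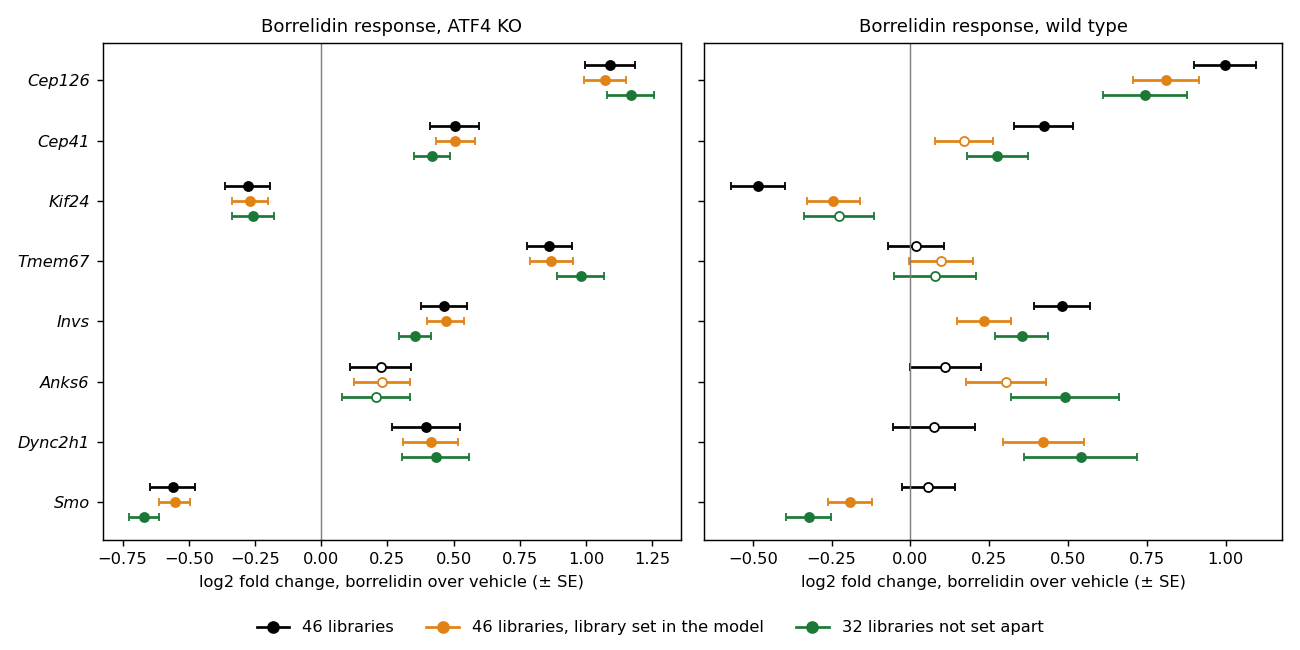
Log2 fold change of borrelidin over vehicle (x axis, ± SE) in ATF4 KO (left) and wild type (right) for each gene (y axis), with all 46 libraries (black), with the library set in the model (orange) and with the 32 libraries not set apart (green), filled where the adjusted p was under 0.05. The KO values of Smo stay between -0.67 and -0.55, while its wild type values are 0.06, -0.19 and -0.32.

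Dync2h1 encodes the heavy chain of the dynein that carries cargo back from the ciliary tip. It lies at chr9:6928503-7184446 (minus strand), overlapped by no other annotated gene. It had 67.6 CPM in the lowest, 89.9 in the median and 122 in the highest ATF4 KO borrelidin library, against 46.4, 68.2 and 96.0 CPM in ATF4 KO vehicle. The wild type levels were 44.0, 72.2 and 100.3 CPM with borrelidin, against 39.7, 68.3 and 94.9 CPM with vehicle. Its groups overlapped in both genotypes, and it had the largest SE of the 8 genes. The log2 fold change was 0.40 ± 0.13 in the ATF4 KO (edgeR adjusted p = 0.015) and 0.08 ± 0.13 in wild type (adjusted p = 0.63), and the difference was not called (0.32 ± 0.18, adjusted p = 0.16). Without the libraries set apart the wild type value was 0.54 (edgeR adjusted p = 0.031) and the difference -0.11 (adjusted p = 0.84). The KO call was lost when the scaling was taken from the 3 stretches alone (0.35, edgeR adjusted p = 0.1).

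Anks6 encodes an ankyrin-repeat partner of the NEK8 kinase in the inversin compartment, and shares that compartment with Invs. Its row is the gene at chr4:47015669-47057427 (minus strand), overlapping the pseudogene Gm12425 at 0 CPM. It had 27.5 CPM in the lowest, 31.8 in the median and 49.0 in the highest ATF4 KO borrelidin library, against 21.4, 27.2 and 38.6 CPM in ATF4 KO vehicle. In wild type it had 38.3, 47.8 and 78.7 CPM with borrelidin, against 30.4, 44.5 and 55.7 CPM with vehicle. The level of 78.7 CPM came from 1 wild type borrelidin library, replicate 5, and the others of that group were in the range of wild type vehicle. Replicate 5 had 15.0% of reads not aligned and 4.69% of counts in the stretches, the highest and the lowest of all libraries. It also had the lowest Tmem67 and the highest Smo and Invs of its group. Anks6 was not called with borrelidin in the ATF4 KO (0.22 ± 0.12, edgeR adjusted p = 0.14) or in wild type (0.11 ± 0.11, adjusted p = 0.4; 95% interval -0.11 to 0.33). Without the 14 libraries set apart the wild type value was 0.49 (edgeR adjusted p = 0.039). With the library set in the model it was 0.30 and not called (edgeR adjusted p = 0.063).

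Between genotypes, all 8 genes differed under borrelidin and 5 of 8 under vehicle. Cep126, Tmem67, Cep41 and Invs were higher in the ATF4 KO under either condition, and Anks6 was lower under either. The background was 49.9% of all rows under borrelidin (25.5% higher and 24.5% lower in the KO) and 35.2% under vehicle (17.5% higher and 17.7% lower). Among the 294 tested rows of the stretches it was 52.7% under borrelidin and 39.1% under vehicle. Each of these comparisons shares its libraries with the borrelidin responses above, so the values are set side by side only. At an adjusted p under 1e-10, Tmem67 passed under borrelidin, where 5.42% of all rows did.

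**Figure D4:**
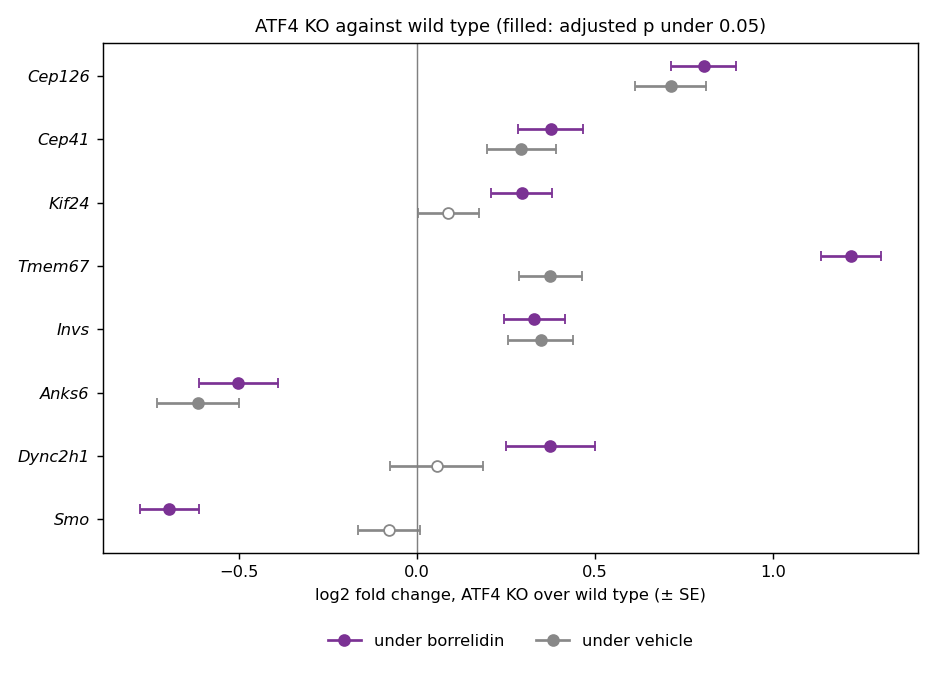
Log2 fold change of ATF4 KO over wild type (x axis, ± SE) for each gene (y axis) under borrelidin (purple, n = 12 against 12) and under vehicle (grey, n = 11 against 11), filled where the adjusted p was under 0.05. Tmem67 lies farthest to the right under borrelidin (1.22) and Smo farthest to the left (-0.70), while Smo under vehicle is at -0.08.

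Under borrelidin, Tmem67 was 1.22 ± 0.09 higher on the log2 scale in the ATF4 KO (edgeR adjusted p = 3.3e-17) and Cep126 0.81 ± 0.09 (adjusted p = 2.3e-10). For both genes every KO library was above every wild type library. Smo was lower, at -0.70 ± 0.08 (edgeR adjusted p = 9.1e-10), with every KO library below every wild type library. Anks6 was at -0.50 ± 0.11 (edgeR adjusted p = 0.00018), with 10 of 12 KO libraries below the lowest wild type one. Cep41 (0.38 ± 0.09), Dync2h1 (0.37 ± 0.13), Invs (0.33 ± 0.09) and Kif24 (0.29 ± 0.08) were higher with overlapping groups, at edgeR adjusted p of 0.00056, 0.012, 0.0013 and 0.0035. Under borrelidin the 3 libraries set apart are all of the KO, and without them all 8 genes kept their call and direction.

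Under vehicle, Cep126 was 0.71 ± 0.10 higher in the ATF4 KO (edgeR adjusted p = 9.1e-08), and the lowest KO library at 41.1 CPM lay just above the highest wild type one at 40.9 CPM. Tmem67 (0.37 ± 0.09), Invs (0.35 ± 0.09) and Cep41 (0.29 ± 0.10) were higher with overlapping groups, at edgeR adjusted p of 0.00073, 0.0021 and 0.014. Anks6 was at -0.62 ± 0.12 (edgeR adjusted p = 2.9e-05), with 6 of 11 KO libraries below the lowest wild type one. Kif24, Dync2h1 and Smo were not called (0.09, 0.05 and -0.08, edgeR adjusted p = 0.44, 0.77 and 0.5). The vehicle groups hold unequal shares of the libraries set apart, 3 of 11 in the KO and 8 of 11 in wild type. Without those libraries Cep126 was at 0.48 (edgeR adjusted p = 0.0094), Tmem67 at 0.35 (adjusted p = 0.065), Anks6 at -0.25 (adjusted p = 0.37) and Smo at -0.32 (adjusted p = 0.0018), so that Tmem67 and Anks6 lost the call and Smo gained it. With the library set in the model Invs (0.18, edgeR adjusted p = 0.08) and Cep41 (0.12, adjusted p = 0.28) lost the call, and Kif24 (0.23, adjusted p = 0.011) and Smo (-0.24, adjusted p = 0.0022) gained it. Of the 8 genes, Cep126 was the one called in the same direction in every alternative fit under vehicle. With scaling on the 3 stretches, which moved the median over all rows to -0.19 under vehicle, the calls of Tmem67, Invs and Cep41 were lost at 0.20, 0.15 and 0.09. Smo gained a call in that fit (-0.26, edgeR adjusted p = 0.00019).

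The genes varied together to unequal degrees. Across all 46 libraries, a description in which group differences and library sets are shared, log2 CPM of Cep41 and Invs had a Pearson r of 0.90, Cep126 had 0.78 with each of them and 0.77 with Tmem67, and Tmem67 had -0.85 with Smo. After each group's mean was removed, Cep41 and Invs still had 0.73 over the 46 libraries and 0.13 over the 32 not set apart, while Cep126 with Invs had 0.00069 and -0.12. Dync2h1 and Smo kept -0.62 and -0.54. Invs and Anks6, which share a compartment, had -0.22 across libraries.

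Among the other 243 tested protein-coding genes of the stretches, the pattern across 46 libraries most like that of Cep126 was Tmem209 (r = 0.91) and then Plekhf2 (0.89). Tmem209 and Aptx were also nearest to Cep41 (0.84 and 0.84) and to Invs (0.85 and 0.85). Nearest to Tmem67 were Ddx58 (0.82), the RIG-I sensor of viral RNA, and Irf5 (0.82), an interferon regulatory factor. Nearest to Smo were Msantd3 (0.86) and Impdh1 (0.85), an enzyme of guanine nucleotide synthesis. For Kif24 they were Fam214b (0.74) and Tln1 (0.74), for Anks6 Mmp3 (0.70) and Fbxo10 (0.66), and for Dync2h1 Zfp800 (0.65) and Zfp292 (0.63). These values hold the differences between groups. After each group's mean was removed, Dync2h1 with Zfp292 had 0.79, Smo with Msantd3 and with Impdh1 0.73 and 0.74, Cep126 with Tmem209 and with Plekhf2 0.47 and 0.54, Tmem67 with Ddx58 and with Irf5 0.23 and 0.12, and Anks6 with Mmp3 0.016. Cep41 with Tmem209 and with Aptx had 0.63 and 0.55, Invs with them 0.57 and 0.53, and Kif24 with Fam214b and with Tln1 0.53 and 0.43. The genes were picked across all 46 libraries, and an order of likeness within groups was not worked out.

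Of 180 other genes on lists of centrosome and cilium genes, 9 lie in the stretches and 4 passed the filter. With borrelidin, 2 of these 4 were called in the ATF4 KO (1 higher and 1 lower) and 2 in wild type (1 higher and 1 lower), with medians of 0.04 and -0.07. Over all rows 30.6% were called in the ATF4 KO and 59.3% in wild type, so with all 46 libraries these counts do not stand out. Fam110b, a centrosome-associated protein in human cells, had 19.7 CPM in the lowest, 39.6 in the median and 54.7 in the highest ATF4 KO borrelidin library, against 12.6, 24.6 and 32.9 CPM in ATF4 KO vehicle. In wild type it had 7.90, 10.6 and 15.6 CPM with borrelidin, against 7.27, 11.4 and 15.5 CPM with vehicle. Its log2 fold change was 0.66 ± 0.15 in the ATF4 KO (edgeR adjusted p = 0.00042) and -0.18 ± 0.17 in wild type (adjusted p = 0.35), with a difference of 0.85 ± 0.22 (adjusted p = 0.0036). The ATF4 KO libraries were above all wild type ones under borrelidin (1.82 ± 0.16, edgeR adjusted p = 3.7e-14), and under vehicle the difference was 0.98 ± 0.16 (adjusted p = 2.5e-06) with overlapping groups. With the library set in the model its wild type response was called too (-0.69, edgeR adjusted p = 0.00027).
Ankrd6, also named diversin, a Wnt pathway protein found at the centrosome, was low. It had 2.57, 4.71 and 6.68 CPM in ATF4 KO borrelidin, against 5.60, 7.00 and 11.5 CPM in ATF4 KO vehicle, and fell by 0.66 on the log2 scale (SE 0.19, edgeR adjusted p = 0.0065). In wild type it had 2.91, 4.43 and 6.35 CPM with borrelidin, against 2.21, 9.29 and 14.5 CPM with vehicle, and fell by 0.94 (SE 0.19, edgeR adjusted p = 7.1e-05). Dctn3, a subunit of the dynactin complex, was called in wild type alone (0.49 ± 0.13, edgeR adjusted p = 0.0016; KO 0.16 ± 0.13, adjusted p = 0.38), the difference was not called (adjusted p = 0.16), and without the libraries set apart its wild type value was 0.01. Topors, a ligase of the ciliary base in photoreceptors, was called in neither genotype (-0.08 in the ATF4 KO and 0.05 in wild type, edgeR adjusted p = 0.36 and 0.54), but in both, at -0.15 and -0.26, without the libraries set apart (adjusted p = 0.011 and 0.0019). The 5 that did not pass the filter, Dnaic1, Cfap206, Spag8, Iqub and Fam166b, belong to motile cilia or sperm tails and averaged 0.112 to 1.47 CPM.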

How the data were processed

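RNA-seq was made from total RNA of MEFs in 46 libraries. The deposited values are raw counts per mouse gene identifier, made by the authors with HISAT2 and, per the submitters' processing notes, HTSeq on mm10 (the paper names feature counts); neither source states versions or the strand setting. The 5 rows that name no gene were left out: on average 69.0% of reads had no feature and 10.9% were assigned. Identifiers were named with GENCODE M21, which holds 52083 of 55416. All 46 columns were mapped to samples.

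Counts were fitted with edgeR 4.0.16 in R 4.3.3 (filterByExpr over the 4 groups, TMM, quasi-likelihood test of contrasts of 4 group means, Benjamini-Hochberg adjustment over 8986 rows). Alternatives used limma 3.58.1, DESeq2 1.42.0, median ratio scaling, scaling on the 3 stretches, no filter, a replicate block, the compared groups only, an ATF4 activity and genotype model, and the library sets. A set was set apart where the widest gap of component 2 scores passed 50% of a group's range. Members, lists and tests were chosen with earlier results of these data known. Named genes were the 8 members, list genes that passed the filter in the stretches, and the 2 genes nearest to each member by Pearson r.

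Whether replicate numbers pair the libraries was tested by the correlation of deviations from group means. In the ATF4 KO all 11 pairs were over 0.1 (0.185 to 0.782), but 2 of 8 among libraries not set apart. In the other comparisons 2 of 11, 5 of 10 and 3 of 12 pairs were. The counts of each 2 libraries of a group differed by more than sampling noise (chi-square over its degrees of freedom 1.96 or more).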

Additional observations from a re-analysis of the deposited data

Results flagged for a closer look

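The borrelidin responses of 2 of the 8 genes and of Fam110b differed between the genotypes by the test of the difference itself. For Tmem67 the ATF4 KO response minus the wild type response was 0.85 on the log2 scale (edgeR adjusted p = 7.4e-07), with 12 of 12 ATF4 KO borrelidin libraries above all ATF4 KO vehicle libraries and 3 of 12 wild type borrelidin libraries above all wild type vehicle libraries. For Smo the difference was -0.62 (edgeR adjusted p = 0.00011), with 11 of 12 ATF4 KO borrelidin libraries below all ATF4 KO vehicle libraries and 0 of 12 in wild type. The wild type count rests on the vehicle libraries set apart: the wild type borrelidin libraries (492 to 661 CPM) all lay below the 3 vehicle libraries not set apart (696 to 760 CPM). Without the 14 libraries the wild type response of Smo was -0.32 (edgeR adjusted p = 0.0011) and the difference -0.35 (adjusted p = 0.012), so Smo was then lower with borrelidin in both genotypes. For Fam110b the difference was 0.85 (edgeR adjusted p = 0.0036).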

How the results depend on the processing

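In all alternative fits run, the calls of Cep126 and Invs in wild type, of Cep126, Cep41, Tmem67, Invs and Smo in the ATF4 KO, of Tmem67 and Smo for the difference of the responses, of Cep126 under vehicle and of all genes but Dync2h1 under borrelidin stayed on their side of the threshold, with 1 direction. At an adjusted p under 1e-10 in the fit of the results above, the members called were 1 in wild type, 2 in the ATF4 KO, 0 for the difference, 0 between genotypes under vehicle and 1 under borrelidin. These counts moved with the fit. With scaling on the 3 stretches the edgeR adjusted p in the KO was 6.4e-08 for Tmem67 and 2e-11 for Smo. That of Cep126 in wild type was 4.7e-05 without the libraries set apart. Scaling on the 3 stretches moved the median over all rows to -0.25 in wild type and -0.19 between genotypes under vehicle. In the latter 3 members were then called, among them Smo, which gained its call. Dync2h1 between genotypes under borrelidin was at an edgeR adjusted p of 0.05, not called.

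Values that turned direction were mostly of genes not called. In wild type, Tmem67 was at -0.01 with median ratio scaling and -0.0079 with DESeq2. Scaling on the 3 stretches gave -0.20 for Tmem67, -0.12 for Anks6, -0.15 for Dync2h1, -0.14 for Smo (edgeR adjusted p = 0.026) and -0.15 for Topors. Without the libraries set apart Smo was at -0.32 and Topors at -0.26, and with the library set in the model they were at -0.19 and -0.12. For the difference of the responses, Invs was at 0.17 with scaling on the stretches, 0.0011 without the libraries set apart and 0.24 with the set in the model. Without the libraries set apart Anks6 was at -0.28, Kif24 at -0.0309 and Dync2h1 at -0.11, and with the set in the model at -0.0745, -0.0234 and -0.0082. Between genotypes under vehicle, scaling on the stretches gave -0.10 for Kif24 and -0.13 for Dync2h1. Among the list genes, the difference of the responses of Dctn3 was 0.15 without the libraries set apart and 0.12 with the set in the model, and that of Topors was 0.0493 with scaling on the stretches, 0.11 without those libraries and 0.0431 with the set in the model. Between genotypes Topors under vehicle was 0.0336 with no filter, and Ankrd6 under borrelidin was -0.0166 without the libraries set apart. The cause was not tested.

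Without the libraries set apart the rows called numbered 1637 in wild type, against 5327 with all libraries, 870 against 3023 for the difference and 1847 against 3167 between genotypes under vehicle; with the set in the model they numbered 2632 in wild type and 1797 for the difference. The members called were 6 in wild type, 2 for the difference and 4 between genotypes under vehicle without those libraries. With the set in the model they were 5 in wild type and 3 for the difference. In the ATF4 KO the rows called rose from 2748 to 3695 without those libraries and to 3827 with the set in the model. The members called there stayed at 7. A replicate block left the members called at 4 in wild type, 7 in the ATF4 KO, 2 for the difference, 5 between genotypes under vehicle and 8 under borrelidin. Of the libraries that have a partner, 2 of 22 in wild type, 5 of 22 in the ATF4 KO, 4 of 20 under vehicle and 3 of 24 under borrelidin correlated best with their own number, and the block changed no other call of a member; for Dctn3 it made the difference of the responses a call (-0.37, edgeR adjusted p = 0.038). Wild type without the libraries set apart rests on 3 vehicle libraries. For the members, 53 counts was the least in a library, and p-values measure the spread between these libraries.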
